A study of Mus musculus with 2 samples.

Results

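The genes described here are 8 enzymes of cholesterol synthesis, namely Hmgcs1, Idi1, Fdps, Fdft1, Sqle, Lss, Cyp51 and Dhcr7, measured by spatial transcriptomics (ST) in mouse liver. They were found by symbol among the 32285 genes of each table, where all 8 were present in both sections. Together they held 8698 of the 29037988 unique molecular identifiers (UMIs) counted over tissue in the normal chow diet (NCD) section and 22906 of the 72118803 UMIs counted over tissue in the high-fat diet (HFD) section. A UMI marks 1 captured RNA molecule, so levels are given as UMIs per 1000000 UMIs of the same spots (CPM). Across the whole section the 8 genes summed to 300 CPM in the NCD section (95% interval 293 to 306) and to 318 CPM in the HFD section (314 to 322).

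The study fed male C57BL/6J mice, bought at 5 weeks of age and acclimated for 1 week, and 1 mouse of each diet gave 1 liver section. The NCD mouse stayed on normal chow, and the HFD mouse received a diet with 60% fat to induce non-alcoholic fatty liver disease (NAFLD) over 14 weeks. Both mice then received distilled water by mouth once daily for 8 weeks, as vehicle controls of a treatment experiment, and no genetic change was named for either. Frozen sections of 10 µm were laid on 10x Visium slides, on which each printed capture spot covers a small area of tissue that can hold several cells. The effect of diet therefore cannot be told apart from that of the animal, the section or the slide, no test between diets was possible, and every interval below is an exact 95% interval that covers counting error only.

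Over tissue there were 3692 NCD spots with a median of 4187.5 UMIs, of which 840 (22.8%) had fewer than 1000 UMIs. There were 3594 HFD spots with a median of 18549 UMIs, of which 4 had fewer than 1000 UMIs. On the NCD slide the spots off tissue held 19.1% of all UMIs, and the 8 genes were found there at 317 CPM, close to their level over tissue. Spots off tissue of the HFD slide held 2.93% of its UMIs, with the 8 genes at 235 CPM. The median depth off tissue was 3383 UMIs per spot on the NCD slide against 1175.5 UMIs on the HFD slide. A spot over tissue was deeper than a spot off tissue in 51.6% of NCD pairs and in 99.2% of HFD pairs, so depth barely parted called tissue from the rest of the NCD slide. The sections shared 3173 spot barcodes over tissue, and the barcodes name slide positions that every slide of this design carries, not cells.

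The labels give the tissue as liver but also give hematopoietic stem cell and immune cell as the source. Alb, which encodes serum albumin and marks hepatocytes, was measured at 56011 CPM in the NCD section against 57872 CPM in the HFD section. Ptprc, which encodes the pan-leukocyte antigen CD45, was at 6.61 CPM and 10.7 CPM. Kit, a receptor of blood stem cells, was at 3.06 and 3.02 CPM, and Cd34, an antigen of blood stem cells and endothelium, at 1.17 and 3.59 CPM. The hematopoietic stem cell list of 4 genes summed to 33.5 CPM in the NCD section against 58.7 CPM in the HFD section, with none at 0. Of the 3 with at least 100 UMIs, 2 were higher by 1.5-fold or more, against 25.5% of all genes with that minimum. Ly6a, an antigen that endothelium and immune cells also carry, was the most abundant gene of the list at 28.8 and 51.2 CPM. Alb was thus far above these markers of leukocytes and stem cells, while hemoglobin transcripts of red blood cells were abundant and are given with the other lists.

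Cholesterol is built from acetyl-CoA in a long chain of enzymes. The first steps form mevalonate, the middle steps join isoprenoid units into squalene, and the late steps close the sterol ring and trim it to cholesterol. The genes of the chain share control by the transcription factor SREBP2 (encoded by Srebf2), which is released from the endoplasmic reticulum when sterols are low and binds sterol regulatory elements in their promoters. In liver the product joins cholesterol taken up from lipoproteins and leaves as lipoprotein cholesterol, cholesteryl ester or bile acid.

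Hmgcs1 stands first in the chain among the 8 genes, and its promoter is shown because it was the only one of those with a promoter sequence at hand that held the sterol regulatory element searched for. RefSeq promoters on GRCm38.p6, each reaching from 250 bases before to 50 bases after the annotated start, were found for 5 of the 8 genes (Hmgcs1, Idi1, Lss, Cyp51 and Dhcr7). The bases before the start of Hmgcs1 lie at chr13:119690101-119690350 on the plus strand, with the sterol regulatory element and the CCAAT boxes (read as ATTGG, on the other strand) in capitals.
Hmgcs1 promoter: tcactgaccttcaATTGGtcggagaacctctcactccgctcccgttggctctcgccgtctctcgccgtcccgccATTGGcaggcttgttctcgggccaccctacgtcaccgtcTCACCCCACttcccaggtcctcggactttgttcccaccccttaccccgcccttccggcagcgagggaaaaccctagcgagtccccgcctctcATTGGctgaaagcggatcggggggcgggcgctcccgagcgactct
The sterol regulatory element, searched as TCACNCCAC on both strands, was present in 1 of the 5 genes (Hmgcs1, at position -137 from the start) and in 1.44% of all 27025 genes with a promoter. Other spellings of the element were not searched, so the other genes are not shown to lack one. The CCAAT box, searched as CCAAT on both strands, was present in at least 1 promoter of all 5 genes and in 41.1% of all genes. The GC box, searched as GGGCGG on both strands, was also present in 5 of 5 and in 38.2% of all genes. None of the 3 motifs contains another, a match is a description of the sequence alone, and no binding was measured.

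The first comparison asked how the level of each enzyme differed between the diets. Dhcr7 was clearly higher in the HFD section, Hmgcs1 was slightly higher, Idi1 and Cyp51 were slightly lower, and the intervals of Fdps, Fdft1, Sqle and Lss included no difference. Dhcr7 was the 1 of 8 genes that differed by 1.5-fold or more upward and 0 of 8 did so downward, where 25.5% of all 11913 genes with at least 100 UMIs were that much higher and 5.01% that much lower. The median log2 ratio of HFD to NCD was 0.034 over the 8 genes and 0.24 over all genes. The summed level differed by 0.085 on the log2 scale (0.049 to 0.12).

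Among the enzymes that lead to squalene, Hmgcs1 (ENSMUSG00000093930, chr13:119690379-119708260 on GRCm38), the synthase that makes HMG-CoA, was at 73.6 CPM (70.5 to 76.8) in the NCD section against 84.7 CPM (82.5 to 86.8) in the HFD section. Its log2 ratio was 0.20 (0.13 to 0.27), an interval that held the median of all genes. Idi1 (ENSMUSG00000058258, chr13:8885501-8892451), which converts isopentenyl diphosphate into its reactive isomer, was at 33.3 CPM (31.2 to 35.4) and 30.5 CPM (29.3 to 31.8), for a log2 ratio of -0.12 (-0.23 to -0.013). Hmgcs1 and Idi1 thus differed in opposite directions, each by less than 1.5-fold. Fdps (ENSMUSG00000059743, chr3:89093588-89101959), which makes farnesyl diphosphate, was at 70.0 CPM (67.0 to 73.1) and 73.3 CPM (71.3 to 75.3), for a log2 ratio of 0.066 (-0.0078 to 0.14). Fdft1 (ENSMUSG00000021273, chr14:63145150-63179578), the squalene synthase, was at 49.0 CPM in both sections, with a log2 ratio of 0.0018 (-0.087 to 0.092). For Fdps and Fdft1 the sections differed by less than counting error could show.

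Among the enzymes that act on squalene and on the sterol ring, Sqle (ENSMUSG00000022351, chr15:59315077-59331192), the squalene epoxidase, was at 17.8 CPM (16.3 to 19.4) in the NCD section against 16.2 CPM (15.2 to 17.1) in the HFD section. Lss (ENSMUSG00000033105, chr10:76531588-76557138), which folds epoxidized squalene into lanosterol, was at 7.61 CPM (6.64 to 8.68) and 8.15 CPM (7.51 to 8.84). Neither interval of the log2 ratio excluded 0, with -0.14 (-0.29 to 0.0090) for Sqle and 0.099 (-0.13 to 0.33) for Lss. Cyp51 (ENSMUSG00000001467, chr5:4081145-4104746), the lanosterol demethylase, was at 32.3 CPM (30.3 to 34.4) and 29.0 CPM (27.8 to 30.3), for a log2 ratio of -0.15 (-0.27 to -0.042). Dhcr7 (ENSMUSG00000058454, chr7:143823145-143848410), the reductase of the last step to cholesterol, was at 16.0 CPM (14.6 to 17.5) and 26.8 CPM (25.6 to 28.0), for a log2 ratio of 0.75 (0.60 to 0.90). It was the only 1 of the 8 whose interval lay wholly above the median of all genes.

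**Figure D1:**
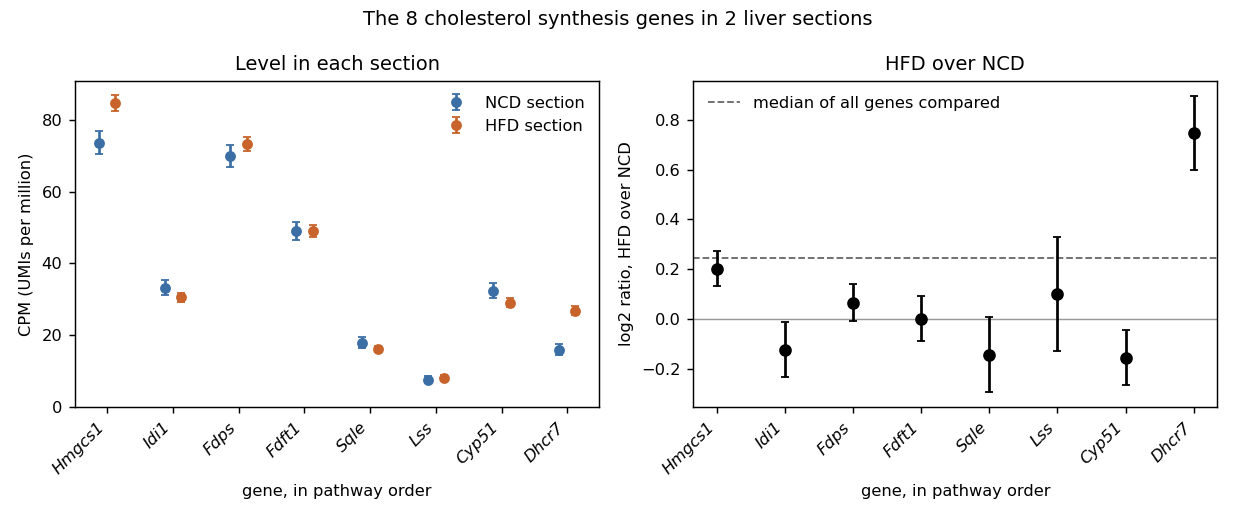
Left, level of each of the 8 genes in CPM in the NCD and HFD sections (points, with exact 95% Poisson intervals). Right, log2 ratio of HFD to NCD with exact 95% intervals, where the dashed line is the median of 11913 genes (0.24) and Dhcr7 at 0.75 is the 1 gene above it.

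A deeper spot is more likely to hold a UMI of any gene, so the share of positive spots was also taken at 3000 randomly kept UMIs per spot, and 1585 NCD and 56 HFD spots with fewer were left out. As deposited, at least 1 UMI of any of the 8 genes was present in 61.3% of NCD spots (59.7 to 62.9) and in 96.2% of HFD spots (95.5 to 96.8). At equal depth the shares were 57.0% (54.9 to 59.1) and 59.2% (57.5 to 60.8). The wide gap between the sections was thus not present at equal depth. Dhcr7 was present in 4.22% of NCD spots (3.41 to 5.17) and in 7.15% of HFD spots (6.32 to 8.05) at 3000 UMIs, in the same direction as its CPM. Hmgcs1 was present in 19.4% (17.7 to 21.2) and 22.1% (20.8 to 23.5) of spots, and these intervals overlapped.

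The difference of Dhcr7 kept its direction under the 13 alternative settings, with log2 ratios from 0.56 (thinned to 1000 UMIs) to 1.43 (off-tissue profile subtracted), while the other 7 genes differed by less than 1.5-fold except Fdps at 0.61 under that subtraction. The small differences were less firm, since Hmgcs1 was at -0.023 after thinning to 1000 UMIs and Cyp51 at 0.21 under the subtraction, whereas Idi1 stayed below 0 under all 13. In bulk spots of this kind, fewer cells of a type and less RNA per cell cannot be told apart. Markers of other cells also differed between the sections, and their part in the enzyme values was not tested. For scale of the counts that follow, 25.5% of all genes were higher and 5.01% lower by 1.5-fold or more. The bile duct list (Epcam, Krt19, Krt7, Sox9 and Spp1) summed to 49.9 CPM in the NCD section against 200 CPM in the HFD section, with 5 of 5 genes higher by 1.5-fold or more, Spp1 the most abundant and none at 0. Without Spp1, which macrophages of fatty liver also express, it summed to 6.44 and 13.6 CPM. The 4 hemoglobin genes of red blood cells summed to 6676 CPM and 1246 CPM, all 4 lower by that margin, with Hbb-bs the most abundant. Of other lists, that of lipid-associated macrophages (5 of 5 higher by 1.5-fold or more, most abundant Spp1) summed to 69.4 and 281 CPM, that of stellate cells (3 of 5, Dcn) to 221 and 454 CPM, that of smooth muscle (3 of 4, Tagln) to 25.9 and 68.7 CPM and that of endothelial cells (3 of 6, Clec4g) to 130 and 197 CPM. Kupffer cell markers (3 of 5 lower, most abundant Cd5l) summed to 194 and 185 CPM, and those of monocytes, T cells and B and plasma cells were each under 20 CPM in both sections. The hepatocyte list, led by Alb, summed to 100469 and 109291 CPM, for a log2 ratio of 0.12.

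A list of 12 other enzymes of the chain was then set beside the 8 genes. Of the 12 enzymes, 1 was higher and 2 were lower by 1.5-fold or more in the HFD section, against 25.5% and 5.01% of all genes. The median log2 ratio of the 12 was 0.16, below that of all genes. Sc5d, the sterol desaturase that supplies the substrate of Dhcr7, was at 128 CPM (124 to 133) and 203 CPM (200 to 207), for a log2 ratio of 0.66. Among the 7 enzymes of the list that act on sterols the next was Ebp, the isomerase that acts before Sc5d, at 144 and 176 CPM with a log2 ratio of 0.29. Dhcr7 and Sc5d were the 2 enzymes higher by 1.5-fold or more among the 20 enzymes of both lists. Both fell just within 1.5-fold under 1 setting, Sc5d at 0.54 with hepatocyte marker UMIs as denominator and Dhcr7 at 0.56 after thinning to 1000 UMIs.

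In the opposite direction, Tm7sf2, a sterol reductase that acts right after Cyp51, was at 139 CPM (134 to 143) in the NCD section against 63.4 CPM (61.6 to 65.3) in the HFD section, for a log2 ratio of -1.13. Hsd17b7, a ketosteroid reductase of the demethylation steps, was at 33.8 CPM (31.8 to 36.0) and 17.1 CPM (16.2 to 18.1), for a log2 ratio of -0.98, which became -0.12 after subtraction of the off-tissue profile. Msmo1, the sterol methyl oxidase, was at 67.3 CPM (64.3 to 70.3) and 51.8 CPM (50.2 to 53.5), for a log2 ratio of -0.38. Before squalene, 0 of 5 enzymes of the list differed by 1.5-fold, against 30.5% of all genes in either direction. The ends of these 5 were Acat2, the cytosolic thiolase of the first step, and Mvd, a decarboxylase of the mevalonate steps, at 0.53 and 0.48, and Pmvk, a kinase of the mevalonate steps, and Ggps1, which draws farnesyl diphosphate into longer isoprenoids, at -0.18 and -0.20. That count of 0 depended on the setting, since Acat2 reached 0.94 after subtraction of the off-tissue profile and, after thinning, Mvd reached 0.85 (1000 UMIs) and Ggps1 -0.81 (3000 UMIs).

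Genes that control the chain or share its regulator did not all lie on one side. Srebf2 was at 27.6 CPM (25.7 to 29.6) in the NCD section against 28.0 CPM (26.8 to 29.2) in the HFD section, for a log2 ratio of 0.021 (-0.098 to 0.14). Of 8 regulators 1 was higher by 1.5-fold or more and 0 were lower, against 25.5% and 5.01% of all genes. The higher one was Srebf1, whose product drives fatty acid synthesis, at 34.2 and 57.5 CPM with a log2 ratio of 0.75. Scap, the SREBP escort protein, was next at 46.2 and 54.9 CPM with a log2 ratio of 0.25, which became 0.91 after subtraction of the off-tissue profile. Insig1 and Insig2, which hold Scap in the endoplasmic reticulum, were at 61.4 and 42.7 CPM (log2 ratio -0.52) and at 338 and 269 CPM (-0.33). Both retention genes were lower in the HFD section beyond counting error, and Insig1 passed 1.5-fold under 4 of 13 alternative settings, at the lowest -1.16 after thinning to 1000 UMIs.

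Of 7 genes of cholesterol uptake, transport and other SREBP2 targets, 1 was higher by 1.5-fold or more and 0 were lower. The shares of all genes were 25.5% and 5.01%. The higher gene of the list was Npc2, which carries cholesterol out of lysosomes, at 72.5 and 124 CPM. Its log2 ratio of 0.78 became 0.49 after subtraction of the off-tissue profile. Lrp1, a lipoprotein receptor, was next at 185 and 255 CPM, for a log2 ratio of 0.46. At the other end, Stard4, a sterol carrier, was at 17.5 and 13.3 CPM (-0.39, and -0.84 after subtraction of the off-tissue profile), and Npc1, the lysosomal membrane protein that takes cholesterol over from Npc2, at 50.2 and 48.8 CPM (-0.041, -0.13 to 0.048).

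Among 9 genes of esterification, storage and export, 2 were higher by 1.5-fold or more and 0 were lower, against 25.5% and 5.01% of all genes. The 2 were Abcg1, which exports sterol to HDL, and Soat1, which esterifies cholesterol, with log2 ratios of 1.14 and 0.93. They were measured at 4.99 and 11.0 CPM for Abcg1 and at 2.96 and 5.64 CPM for Soat1. At these low levels the ratios fell within 1.5-fold under some alternative settings, at the lowest to 0.46 for Abcg1 and 0.28 for Soat1. Abcg5 and Abcg8, the paired transporters that pass sterol into bile, had log2 ratios of -0.51 and -0.50, and of -0.63 and -0.62 with hepatocyte marker UMIs as denominator. After subtraction of the off-tissue profile they were at -0.29 and -0.68, and Abcg8 was at -0.41 after thinning to 1000 UMIs. In the isoprenoid branch 2 of 4 genes were higher by 1.5-fold or more, beside the same 25.5% of all genes. Fntb, a farnesyltransferase subunit, was at 0.75 and Coq2, an enzyme of ubiquinone synthesis, at 0.66. Both fell within 1.5-fold under some alternative settings (lowest 0.027 and 0.30). Dhdds, an enzyme of dolichol synthesis, was at 0.39, or 1.10 after subtraction of the off-tissue profile and -0.0076 after thinning to 3000 UMIs. Pdss1, which builds the ubiquinone tail, was at 0.10 (-0.32 to 0.54), or -0.58 after that thinning.

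As a contrast, 4 of 7 measured genes of fatty acid synthesis were higher by 1.5-fold or more and 0 were lower. Of all genes 25.5% were that much higher and 5.01% that much lower. The eighth gene of the list, Pnpla3, had too few UMIs to be compared. Thrsp, a lipogenesis gene, had a log2 ratio of 2.70 and Fasn, the fatty acid synthase, of 1.63, whereas Scd1, the stearoyl-CoA desaturase, was at 0.046 and Me1, the malic enzyme, at 0.024. Scd1 passed 1.5-fold, at 0.79, after subtraction of the off-tissue profile. Of 8 bile acid synthesis genes 0 were higher and 3 were lower by that margin, with Cyp7b1, an oxysterol hydroxylase, at -2.39 and Slc27a5, the bile acid CoA ligase, at -0.65, which became -0.50 after subtraction of the off-tissue profile. Hsd3b7, an oxidoreductase of the sterol ring, and Baat, which joins bile acids to amino acids, were at 0.20 and -0.0010. The 8 cholesterol synthesis genes had 1 higher and 0 lower, and the counts of these lists were not tested against each other.

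**Figure D2:**
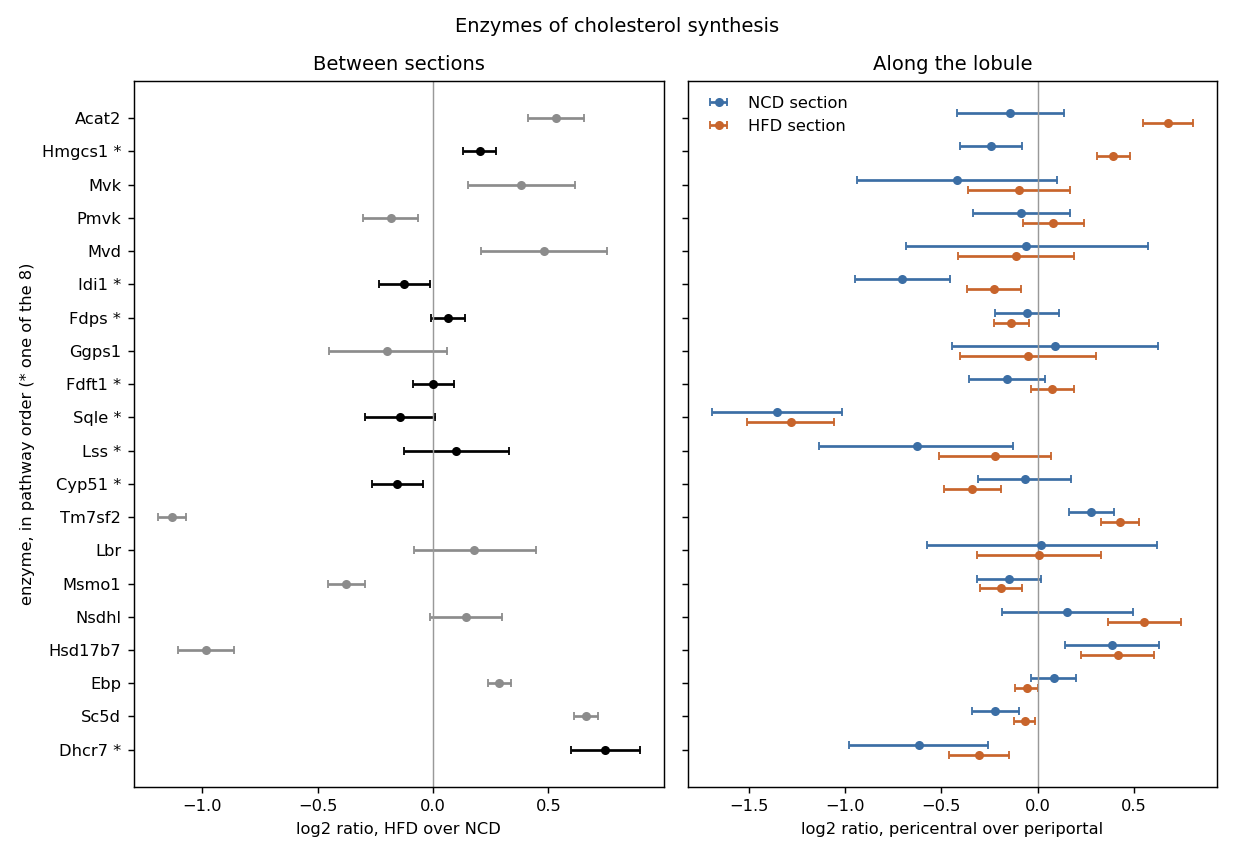
Left, log2 ratio of HFD to NCD of 20 enzymes in pathway order, with the 8 genes starred and black and the others grey. Right, log2 ratio of pericentral to periportal spots in the NCD and HFD sections, and in both panels bars are exact 95% intervals of counting error. Sqle lies far on the periportal side in both sections (-1.35 and -1.28). Hmgcs1 and Acat2 lie on the pericentral side in the HFD section (0.39 and 0.67), as do Tm7sf2 and Hsd17b7 (0.43 and 0.41).

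The second comparison asked where along the liver lobule the 8 genes were found. Blood enters the lobule at the portal tract and leaves at the central vein, and hepatocytes near either end run different metabolic programs. Every spot over tissue with at least 1000 UMIs (2852 NCD and 3590 HFD spots) was ranked within its section by the log2 ratio of 9 pericentral marker genes to 7 periportal ones, and the ranking was split into 3 groups of equal size. The markers hold none of the 8 genes. The pericentral markers were at 3176 CPM in the periportal and 19103 CPM in the pericentral group of the NCD section, and at 2200 and 12137 CPM in the HFD section, as the ranking sets them.

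Sqle was higher in the periportal spots of both sections, and Hmgcs1 ran in opposite directions in the 2 sections per all UMIs, though not per hepatocyte marker UMIs. In the NCD section 4 of 8 genes (Sqle, Idi1, Lss and Dhcr7) were lower in the pericentral than in the periportal group by 1.5-fold or more and 0 of 8 were higher, against 2.81% lower and 7.19% higher of all 7676 genes with at least 100 UMIs in both groups together. In the HFD section 1 of 8 (Sqle) was lower by that margin and 0 of 8 were higher, against 4.18% lower and 4.82% higher of 10812 genes. The median log2 ratio of pericentral to periportal was -0.43 over the 8 genes and 0.13 over all genes in the NCD section, and -0.22 and 0.083 in the HFD section.

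Sqle was at 28.6 CPM in the periportal, 16.8 CPM in the midlobular and 11.2 CPM in the pericentral group of the NCD section. HFD levels were 23.6, 12.1 and 9.72 CPM in the same order. The level was lower at each step toward the central vein in both mice, and the log2 ratios of the ends were -1.35 (-1.69 to -1.02) and -1.28 (-1.51 to -1.06). Split into 10 groups along the ranking, Sqle ran from 36.2 CPM at the periportal end to 10.3 CPM at the pericentral end of the NCD section, and from 28.4 to 11.4 CPM in the HFD section. Its level in the HFD section was lower than in the NCD section within the midlobular group (log2 ratio -0.47, -0.76 to -0.19) and the periportal group (-0.28, -0.50 to -0.049), and the interval included 0 in the pericentral group (-0.21, -0.54 to 0.13).

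Hmgcs1 was at 79.7 CPM in the periportal, 75.1 CPM in the midlobular and 67.3 CPM in the pericentral group of the NCD section, for a log2 ratio of the ends of -0.24 (-0.40 to -0.083). HFD levels were 76.5, 79.5 and 100 CPM, for a log2 ratio of 0.39 (0.31 to 0.48). The direction was thus opposite between the sections, each beyond counting error, and the difference was not tested because each diet had 1 section. With the UMIs of the hepatocyte markers as denominator, which moved the median of all genes to 0.68 in the NCD section against 0.51 in the HFD section, the NCD ratio became 0.31 and the HFD ratio 0.82. Relative to the median gene the ratios were -0.37 and 0.31 under either denominator. The log2 ratio of HFD to NCD was highest in the pericentral group, at 0.58 (0.45 to 0.70), against 0.082 (-0.040 to 0.20) in the midlobular and -0.059 (-0.19 to 0.073) in the periportal group.

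Idi1 was at 40.4, 35.1 and 24.8 CPM from the periportal to the pericentral group of the NCD section and at 35.4, 23.6 and 30.2 CPM in the HFD section. The NCD levels were lower at each step along the lobule (log2 ratio -0.70, -0.95 to -0.46), whereas the HFD levels were lowest in the middle (-0.23, -0.37 to -0.086). Dhcr7 was at 18.6, 17.8 and 12.1 CPM in the NCD section (-0.62, -0.98 to -0.26) and at 30.1, 24.7 and 24.3 CPM in the HFD section (-0.31, -0.46 to -0.15). Its log2 ratio of HFD to NCD was above 0 in all 3 groups, at 0.69 (periportal), 0.47 (midlobular) and 1.01 (pericentral). Lss was at 9.90, 7.36 and 6.40 CPM in the NCD section (-0.63, -1.13 to -0.13) and at 8.69, 8.12 and 7.46 CPM in the HFD section, where the interval included 0 (-0.22, -0.51 to 0.067). The Lss ratios rest on few UMIs, and no difference between sections can be read from them.

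For Fdps, Fdft1 and Cyp51 the NCD log2 ratios of the ends were -0.055, -0.16 and -0.069, with intervals that all included 0. Relative to the median gene they were -0.18, -0.29 and -0.19. Under the alternative settings they ran from -0.25 to 0.50 for Fdps, from -0.28 to 0.40 for Fdft1 and from -0.69 (thinned to 1000 UMIs) to 0.49 for Cyp51. Cyp51 in the HFD section was at 34.2 CPM in the periportal, 23.6 CPM in the midlobular and 27.0 CPM in the pericentral group, for a log2 ratio of the ends of -0.34 (-0.49 to -0.19). Fdps was at 79.1, 65.9 and 71.9 CPM (-0.14, -0.23 to -0.045). Fdft1 was at 49.3, 45.4 and 51.9 CPM (0.074, -0.038 to 0.19). All 3 were lowest in the midlobular group of the HFD section, and for each gene the interval there overlapped that of 1 neighbouring group.

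The dip was plainer when the ranking was split into 10 groups. In the HFD section the 8 genes summed to 358 CPM in the most periportal group, 259 CPM in the eighth group and 402 CPM in the most pericentral group. Idi1 ran from 38.4 through 20.4 (seventh group) to 43.5 CPM, Cyp51 from 38.0 through 20.2 to 36.6 CPM, and Hmgcs1 stayed between 75.9 and 79.3 CPM over the first 5 groups before it reached 121 CPM at the pericentral end. The NCD sum went from 374 CPM at the periportal end to 256 CPM in the ninth group and 269 CPM at the pericentral end. The sum was thus high at both ends in the HFD section, and at the periportal end in the NCD section. Not every gene followed the sum, since Sqle was at 11.4 CPM at the pericentral end of the HFD section against 28.4 CPM at the periportal end. Dhcr7 was at 25.2 against 31.4 CPM and Lss at 7.90 against 10.2 CPM, both with overlapping intervals. Hmgcs1, Idi1, Fdps and Fdft1 were higher at the pericentral end there.

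**Figure D3:**
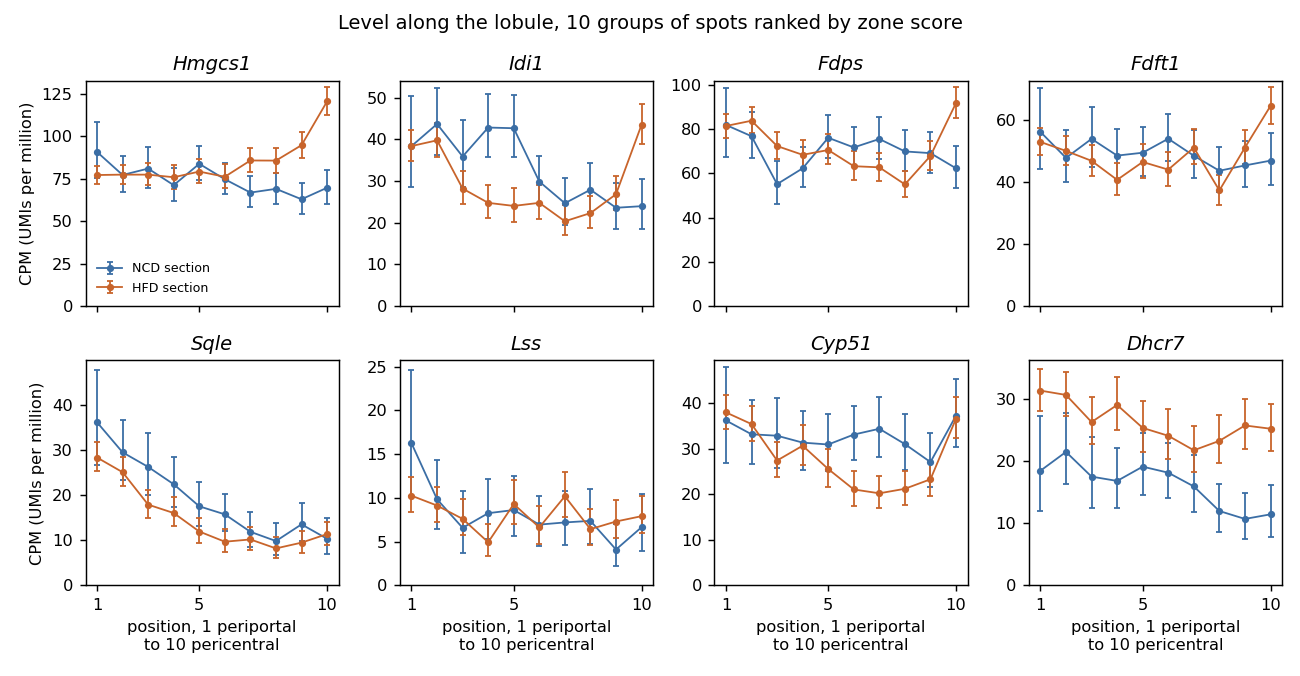
Level of each gene (CPM) in 10 groups of spots ranked from periportal (1) to pericentral (10), in the NCD and HFD sections, with exact 95% Poisson intervals. Sqle is lower at 10 than at 1 in both sections (36.2 to 10.3 and 28.4 to 11.4 CPM), while Hmgcs1, Idi1 and Fdps turn up at position 10 in the HFD section (121, 43.5 and 91.9 CPM).

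Other measures moved with the lobule as well. The periportal groups held more bile duct transcripts, with the bile duct list at 121 CPM in the periportal and 10.8 CPM in the pericentral group of the NCD section and at 336 and 75.0 CPM in the HFD section. Spp1 was its most abundant gene, and Krt19, a keratin of bile duct cells, had 0 UMIs in the pericentral group of the NCD section. Other lists moved along the lobule too, and their part in the enzyme values was not tested. The log2 ratios of pericentral to periportal of the summed lists were -3.07 in the NCD section against -1.98 in the HFD section for smooth muscle, -2.13 and -1.47 for lipid-associated macrophages, and 0.12 and 0.73 for Kupffer cells. The hemoglobin genes ran from 6674 CPM in the periportal to 4844 CPM in the pericentral group of the NCD section (-0.46) and from 907 to 1587 CPM in the HFD section (0.81). Their direction was opposite between the sections, as was that of Hmgcs1. Spots with a UMI of Epcam, Krt19, Krt7 or Sox9 were 609 in the HFD section, where the 8 genes summed to 372 CPM (363 to 381) against 302 CPM (297 to 306) in the other spots. The 130 such NCD spots had 333 CPM (309 to 358) against 297 CPM (290 to 303). Sqle was at 26.4 and 13.2 CPM in HFD spots with and without such a UMI. Spots with such a UMI were also deeper, with medians of 25477 against 17415 UMIs among HFD spots and 14774.5 against 3919 UMIs among NCD spots.

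Without these spots, a setting chosen after seeing the data, the ratio of pericentral to periportal was -1.39 in the NCD section against -1.04 in the HFD section for Sqle, and -0.24 and 0.48 for Hmgcs1. Sqle stayed past 1.5-fold in both sections and Hmgcs1 kept its direction in each. The bile duct transcripts other than Spp1 were sparse, at 6.44 and 13.6 CPM in the NCD and HFD sections. A spot without such a UMI can thus still hold duct cells, and their part was not tested. The sum of the 8 genes in the HFD section was less firm, since its ratio of -0.061 (-0.10 to -0.017) became 0.084 without these spots. Depth also differed along the lobule, with medians of 24243 UMIs per spot in the periportal, 14424 in the midlobular and 17585 in the pericentral group of the HFD section, and 4635, 7919 and 7686 UMIs in the NCD section. Among HFD spots at or below the median depth the Sqle ratio was -0.66 and that of Hmgcs1 0.44, and among deeper spots they were -1.40 and 0.41.

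The hepatocyte marker list itself was lower toward the central vein, from 123060 to 83613 CPM in the NCD section and from 125397 to 93060 CPM in the HFD section, with log2 ratios of -0.56 and -0.43. As a denominator it takes these values off every zone ratio, so that negative ratios nearer to 0 than these become positive. Under it Sqle alone (-0.79 in the NCD and -0.85 in the HFD section) stayed past 1.5-fold on the periportal side, and Idi1, Lss and Dhcr7 in the NCD section were at -0.15, -0.072 and -0.061. Relative to the median gene, Sqle was at -1.48 and -1.36, Idi1 at -0.83 and -0.31, Dhcr7 at -0.74 and -0.39, and the sum at -0.44 and -0.14. All 8 genes but Hmgcs1 in the HFD section lay below the median gene, where Fdft1 was at -0.0089.

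In the list of 12 other enzymes, 0 of 11 with enough UMIs in the NCD section differed by 1.5-fold along the lobule, beside the 2.81% lower and 7.19% higher of all genes given above. Of the 12, 1 was higher and 0 were lower in the pericentral group of the HFD section by that margin, against 4.82% and 4.18% of all genes. The median log2 ratio of the list was 0.014 in the NCD section against -0.022 in the HFD section, below the median of all genes (0.13 and 0.083) in both. Sc5d was on the periportal side, at -0.22 (-0.34 to -0.099) among NCD spots and -0.069 (-0.13 to -0.013) among HFD spots per all UMIs, and its ratios became 0.34 and 0.36 per hepatocyte marker UMIs. Acat2, which like Hmgcs1 acts before mevalonate, was the higher one, at 29.1, 33.5 and 46.5 CPM from the periportal to the pericentral group (0.67), and its ratio was 0.52 in spots at or below the median depth. Among NCD spots the ratio of Acat2 was -0.14 (-0.42 to 0.14). Tm7sf2 and Hsd17b7, which act on sterols, were on the pericentral side within 1.5-fold, at 0.28 and 0.38 in the NCD section. In the HFD section they were at 0.43 and 0.41. Msmo1 was at 58.7, 42.2 and 51.4 CPM in the HFD section, with the midlobular dip that Idi1, Cyp51 and Fdps also had.

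Among the regulators, Insig1 was lower in the pericentral group in both sections (73.4 and 49.2 CPM in the NCD section, 47.4 and 37.6 CPM in the HFD section), with log2 ratios of -0.58 and -0.34. Srebf2 was at 26.5 and 28.7 CPM in the NCD section and 30.0 and 27.0 CPM in the HFD section, with log2 ratios of 0.12 (-0.15 to 0.39) and -0.15 (-0.30 to -0.00074). The NCD ratio of Srebf2 was -0.065 in spots above the median depth and 0.93 in spots at or below it, so its direction is not settled. Relative to the median gene Insig1 was at -0.70 and -0.42, on the same side as Sqle, and per hepatocyte marker UMIs, which move the median of all genes, at -0.019 and 0.095. Of the bile acid synthesis genes, 5 of 8 were higher in the pericentral group by 1.5-fold or more in each section. That margin was reached by 7.19% of all genes among NCD spots and by 4.82% among HFD spots.

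The third description asked whether the 8 genes were high in the same spots. Counts of each spot with at least 3000 UMIs were turned into residuals against the depth of the spot, and each gene was correlated with the summed residuals of the other 7. All spots of a section share 1 library and neighbouring spots share tissue, so the correlations are a description without a p-value. In the HFD section (3538 spots) Pearson's r was 0.26 for Fdps, 0.25 for Idi1, 0.24 for Sqle, 0.22 for Cyp51, 0.20 for Hmgcs1, 0.15 for Fdft1, 0.068 for Dhcr7 and 0.052 for Lss. Of the 28 pairs of genes 26 had an r above 0, with a median of 0.074. For scale, the 99th percentile of r with the summed 8 genes was 0.11 over 7695 genes. Dhcr7, the gene of the 8 that differed most between the diets, was thus among those of the 8 least tied to the others across spots. Its r was still above that of 96.4% of the 7695 genes, and that of Lss above 94.2%.

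In the NCD section (2107 spots) the r of a gene with the other 7 ranged from 0.031 (Lss) to 0.11 (Idi1), with 22 of 28 pairs above 0 and a median of 0.032. Among 4005 other genes, Idi1 was above 99.5%, Cyp51, at 0.092, above 99.1%, Hmgcs1, at 0.084, above 98.8% and Fdps, at 0.063, above 97.9%. The counts per spot were lower in this section, and values this small in sparse counts, those of other genes included, are given as a description only. Residuals taken against the level of the spot's own lobule group gave a median pair r of 0.066 in the HFD section against 0.027 in the NCD section.

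Among genes outside the 8, the r with their sum was highest for Msmo1 (0.27) in the HFD section. It was followed by Mt1 and Mt2, the metallothioneins (0.26 and 0.23), Spp1, a secreted protein of bile duct cells and macrophages (0.26), Apoa1, the main apolipoprotein of HDL (0.25), Tff3, a trefoil peptide (0.24), Ahsg, the plasma protein fetuin-A (0.23), Igfbp1, an IGF binding protein (0.22), Serpina1e, a protease inhibitor (0.20), and Adamtsl2, a matrix protein (0.19). Msmo1 was the 1 gene of the enzyme lists among these 10. The 7 fatty acid synthesis genes had a median r of 0.015. They ran from Scd1 at -0.11, above 0.53% of genes, to Fasn at 0.15, above 99.6%. Srebf2 and Insig1 had values of 0.051 and 0.067, and Srebf1 of -0.011.

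In the NCD section the 10 genes were Serpina1e (0.23), Alb (0.21), Hpx, the plasma protein hemopexin (0.20), Apoa4, an apolipoprotein (0.19), Mup20, a major urinary protein (0.18), Apoa1 (0.18), Cyp2f2, a periportal cytochrome (0.16), Mt1 (0.15), Slc25a47, a mitochondrial carrier (0.14), and Gsn, the actin-binding gelsolin (0.14). Msmo1 was at 0.11 there, above 99.4% of 4005 genes. Mt1, Apoa1 and Serpina1e were thus among the 10 in both sections. The zone markers differed between the sections, as the median r of 7 pericentral markers was -0.13 in the NCD section against 0.11 in the HFD section. Cyp2e1, the most abundant of them, was below 0 in both, at -0.19 and -0.086. The others lay between 0.079 (Gulo) and 0.17 (Glul) in the HFD section.

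**Figure D4:**
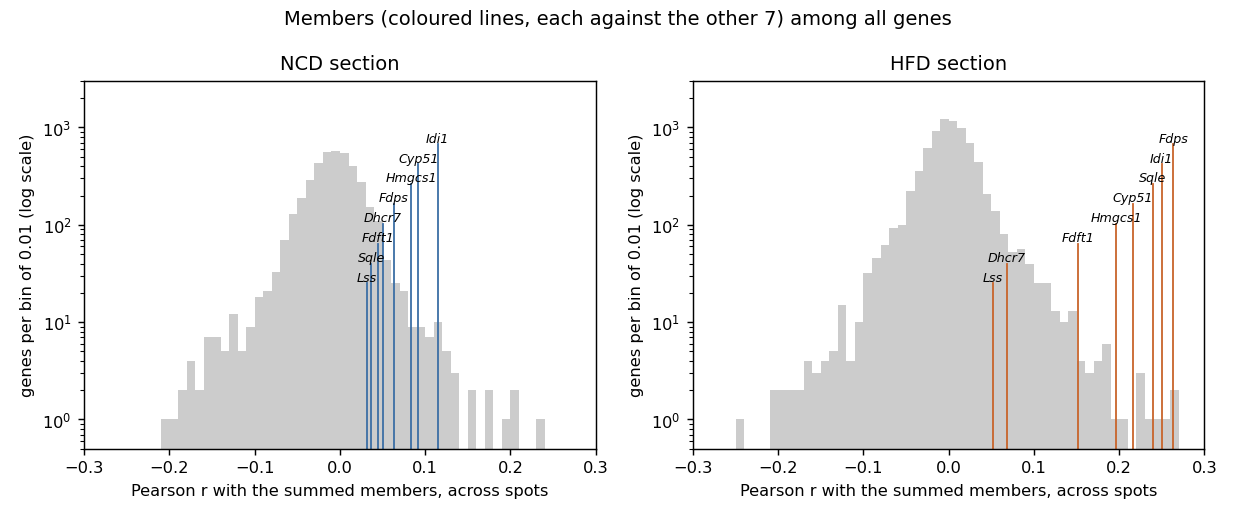
Grey, number of genes (log scale) by Pearson r with the summed residuals of the 8 genes across spots, in the NCD section (left, 4005 genes) and the HFD section (right, 7695 genes); coloured lines, each of the 8 genes against the other 7, at heights set only to part the names. Fdps, Idi1, Sqle, Cyp51 and Hmgcs1 lie between 0.20 and 0.26 in the HFD section, beyond the 99th percentile of 0.11.

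The spread of each gene over spots was set beside that of the 100 genes nearest in UMIs, as the variance of residuals that is 1 for pure counting error. Among HFD spots Sqle had a variance of 1.19 against a median of 1.05, above all 100 near genes, and Fdps had 1.33 against 1.08, above 96 of 100. Idi1, Fdft1 and Hmgcs1 were above 93, 92 and 90 of 100, and Lss and Dhcr7 above 42 and 56. Among NCD spots Idi1 was above 93 of 100, Fdps above 87 and Sqle above 82, whereas Dhcr7 was above 13. Sqle, Fdps and Idi1 thus had the 3 highest ranks among the 8 genes in both sections.

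The level of the 8 genes also went with spot depth in the HFD section. In the deepest of 5 depth groups (median 33997 UMIs) they summed to 356 CPM (348 to 363), against 287 to 302 CPM in the other 4. Sqle was at 22.2 CPM there and between 12.2 and 13.3 CPM elsewhere. The deepest NCD group had 303 CPM (295 to 312) and the shallowest 347 CPM (283 to 420), with overlapping intervals. Besides the split by median depth given above, zone ratios were taken after thinning to 1000 UMIs and in spots with at least 3000 UMIs. The Sqle ratio in the HFD section was -0.62 after that thinning. The part of depth in the lobule pattern was not tested beyond these settings.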

How the data were processed

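Counts of UMIs per gene and spot were used as deposited by the authors, who aligned reads, counted UMIs and called spots over tissue with Space Ranger 1.3.1 (per the file headers; mm10 per the submitters' processing notes; annotation not given in the sources used here) without normalization, for 1 liver section per diet. The headers of the tables of all spots name Cell Ranger 4. Over tissue and all-spot tables differed in 0 UMIs over shared spots. UMIs of a gene were summed over spots and divided by all UMIs (CPM). Sums have exact Poisson, ratios exact conditional binomial and shares exact Clopper-Pearson intervals at the 95% level, which cover counting error only. With 1 section per diet no test and no p-value was computed. Genes with at least 100 UMIs were counted as differing from a 1.5-fold ratio. The zone score was the log2 ratio of pericentral to periportal marker UMIs, each with 0.5 added. Residuals used an overdispersion parameter of 100. Other genes correlated with the summed residuals had at least 500 UMIs. The cholesterol synthesis genes described here were kept below that floor too. In NCD spots with at least 3000 UMIs, Lss, Dhcr7 and Sqle had 210, 436 and 483 UMIs. Thinning used seed 1.

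The 8 genes and the lists were chosen with earlier results of these data known. Some genes are not reported here and were left out of the list counts. Beside cell type markers, genes named are the 8, Srebf2, Srebf1, Insig1 and Msmo1, the 2 highest and 2 lowest ratios of HFD to NCD in each other list, and the 10 genes with the highest r in each section. Gene positions are from GENCODE M21 on GRCm38, which holds 32158 of the 32285 identifiers. Promoters are from RefSeq. Alternatives changed the denominator, the spots, the weighting, depth, zone markers, zone width and off-tissue background. Those that used bile duct UMIs, median depth or zones from all spots of the capture area were chosen after seeing the data. The ratio intervals were tested on simulated counts that held counting error only. The software was matplotlib 3.10.9, pandas 2.3.3, scipy 1.17.1 and numpy 2.4.6 under Python 3.11.15. Spot positions, images and single-cell data were not used here.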

Additional observations from a re-analysis of the deposited data

Results flagged for a closer look

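Hmgcs1 was lower in pericentral than in periportal spots of the NCD section, with a log2 ratio of -0.24, and higher in the HFD section, with 0.39. It was listed because the direction was opposite in the 2 sections, and the difference was not tested. Npc2, the lysosomal cholesterol carrier, had log2 ratios of -0.17 and 0.10 in the same order, and Scd1, the stearoyl-CoA desaturase, of -0.46 and 0.51, both listed for the same reason and likewise not tested. Under the hepatocyte denominator the NCD ratios of Hmgcs1, Npc2 and Scd1 became 0.31, 0.39 and 0.096 and the HFD ratios 0.82, 0.53 and 0.94, so that none of the 3 directions was opposite there. Relative to the median gene they were -0.37, -0.30 and -0.59 in the NCD section and 0.31, 0.016 and 0.42 in the HFD section.

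Transcripts of the 8 genes were counted in spots off tissue, which entered the comparisons only in alternative settings. They summed to 317 CPM (304 to 331) on the NCD slide and 235 CPM (215 to 256) on the HFD slide, above the levels of 0.437 and 1.38 CPM that a count of 3 would give there.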

How the results depend on the processing

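No paired analysis was possible because each diet had 1 section and the labels share only replicate 1. The settings of the 8 genes were also run for 34 other named genes, a choice made after seeing the data (29 had enough UMIs by zone in the NCD section). None of the ratios past 1.5-fold of these genes or of the 8 changed direction. Among smaller ratios, the pericentral to periportal ratio of Lss in the HFD section went from -0.22 to 1.38 after thinning to 1000 UMIs, where 27 UMIs of Lss remained in all zones together. The summed log2 ratio of HFD to NCD, 0.085, moved beyond its counting interval to 0.040 with nuclear genes as denominator, -0.037 with hepatocyte marker UMIs, 0.014 as a mean per spot, -0.040 after thinning to 1000 UMIs, 0.024 without spots with a bile duct UMI and 0.30 after subtraction of the off-tissue profile. The summed pericentral to periportal ratio in the NCD section, -0.31, moved to -0.42 with zones of the outermost 20% of spots at either end, -0.44 without mitochondrial genes and the 20 most abundant genes, and 0.24 with hepatocyte marker UMIs. In the HFD section the same ratio, -0.061, moved to 0.019 without Cyp2e1, Cyp2f2 and Ass1 among the zone markers, -0.11 with Cyp2e1 and Cyp2f2 alone, 0.0073 with the narrower zones, 0.016 after thinning to 1000 UMIs, -0.11 without mitochondrial and the 20 most abundant genes, 0.37 with hepatocyte marker UMIs, 0.084 without spots with a bile duct UMI and 0.086 in spots at or below the median depth. The sign of that sum changed under 6 of 13 alternatives and is not settled; the cause was not tested, and the hepatocyte denominator itself moved the median of all genes. Sqle stayed below 0 under all 13 alternatives, from -1.50 to -0.79 among NCD spots and from -1.40 to -0.62 among HFD spots, and Hmgcs1 stayed above 0 in the HFD section, from 0.32 to 0.82. The median pair r across spots lay between 0.066 and 0.086 for HFD spots and between 0.027 and 0.032 for NCD spots. Among the 8 genes depth limits Lss most, with 221 NCD and 588 HFD UMIs. No result has a check by a second animal.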
